A study of Mus musculus with 8 samples.

Results

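Erg, Fli1, Ets1, Ets2, Tal1, Lyl1, Lmo2 and Gata2 encode transcription factors, or in the case of Lmo2 a transcription factor partner, of endothelial and blood-forming cells. They were chosen by name, with earlier results of these data known. They are 8 of the 21887 protein-coding genes on the assembled chromosomes of mm10. All 8 were found in RefSeq. SMAD4 peaks were assigned to them when the summit lay inside the gene body or within 100 kb of it. This gave 3 of the 1133 peaks called in unstimulated cells and 16 of the 4333 called after stimulation, and each peak was marked by whether one of the 8 was its nearest protein-coding gene.

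The cells were MS1, an established mouse endothelial line from pancreatic islets, and carried no engineered allele that the labels name. All had been without serum for 24 h. The unstimulated groups (2 SMAD4 immunoprecipitates, IP, and 2 input DNA libraries) then received fresh medium alone, and the stimulated groups (2 and 2) received recombinant BMP9/10 at 1 ng/mL, for a time not given in the sources used here. The stimulated IP titles contain KD directly after Smad4, an abbreviation with no explanation in the labels. Whether it marks a knockdown of Smad4 was not tested, and what is reported for these libraries holds for libraries so titled.

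The authors merged the 2 IP and the 2 input libraries of each condition before peaks were called. Each site therefore has 1 value per condition and no replicate error, and any difference between the lists compares pooled libraries. The unstimulated list rested on 52971023 IP tags and the stimulated list on 41044888. Binding in more cells and more binding per cell cannot be told apart in these data. A peak list shows binding and not expression, so the endothelial label could be set only beside binding at marker genes: 8 of 8 endothelial markers (Pecam1, Cdh5, Kdr, Tek, Emcn, Egfl7, Eng and Esam) were nearest to a stimulated peak within 100 kb and 5 of 8 to an unstimulated one, against 12.2% and 3.79% of all protein-coding genes.

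BMP9 and BMP10 circulate in blood and signal through the endothelial receptor ALK1 with its co-receptor endoglin. The activated receptor phosphorylates SMAD1, SMAD5 and SMAD8/9, which enter the nucleus with SMAD4 and bind short DNA elements, usually beside lineage factors. ERG, FLI1 and ETS1 are ETS factors, which recognise a GGAA core and keep endothelial genes active. TAL1 and LYL1 are basic helix-loop-helix proteins that bind E-boxes together with E proteins. LMO2 binds no DNA itself and bridges TAL1 or LYL1 to GATA factors. GATA2 binds GATA motifs and is needed for blood stem cells and for vascular development.

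SMAD4 peaks lay near 2 of the 8 genes in unstimulated cells and near 7 of the 8 after BMP9/10. Tal1 and Lyl1 had peaks in both lists, Erg, Fli1, Ets1, Lmo2 and Gata2 had them in the stimulated list alone, and Ets2 had none in either. Over all protein-coding genes, 13.1% had an unstimulated summit in the same window, 36.5% a stimulated one and 23.6% a stimulated and no unstimulated one. The 5 of 8 genes in that last class are read against 23.6%. At least 2 stimulated peaks were assigned to 6 of the 8 genes, against 16.2% of all genes. The median body length of the 8 was 21.3 kb and that of all genes 17.2 kb. Erg, Fli1 and Ets1 were much longer, at 227, 121 and 122 kb, and the others were under 30 kb. A stimulated peak lay in the window of 43.7% of all genes of 100 to 250 kb, and of 34.2% of those under 30 kb.

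The window takes in peaks that lie closer to other genes. When only the nearest protein-coding gene was counted, 1 of the 8 genes (Tal1) had an unstimulated and 6 of the 8 (Erg, Fli1, Tal1, Lyl1, Lmo2 and Gata2) a stimulated peak, against 3.79% and 12.2% of all genes. The stimulated peaks formed 17 pairs of gene and peak, since 1 peak fell in the windows of both Fli1 and Ets1. In 12 of these 17 pairs the described gene was the nearest, against 26.4% of all such pairs over the genome. These shares depend on how many protein-coding genes lie within 100 kb of a summit, which was not matched. That number ran from 1 at the peaks inside Erg to 6 at the Lyl1 peaks. Where only 1 gene is in reach, it is the nearest by construction. The stimulated list is the longer one, and its length bears on these counts. Cut to its 1133 peaks of lowest p-value, as many as the unstimulated list held, it left 5 peaks at 4 of the 8 genes (Erg, Tal1, Lmo2 and Gata2), against 13.3% of all genes. With a −log10 q of at least 10 asked of both lists, 1 gene (Tal1) had an unstimulated and 4 genes (Erg, Tal1, Lmo2 and Gata2) a stimulated peak, against 4.92% and 17.1% of all genes.

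**Figure D1:**
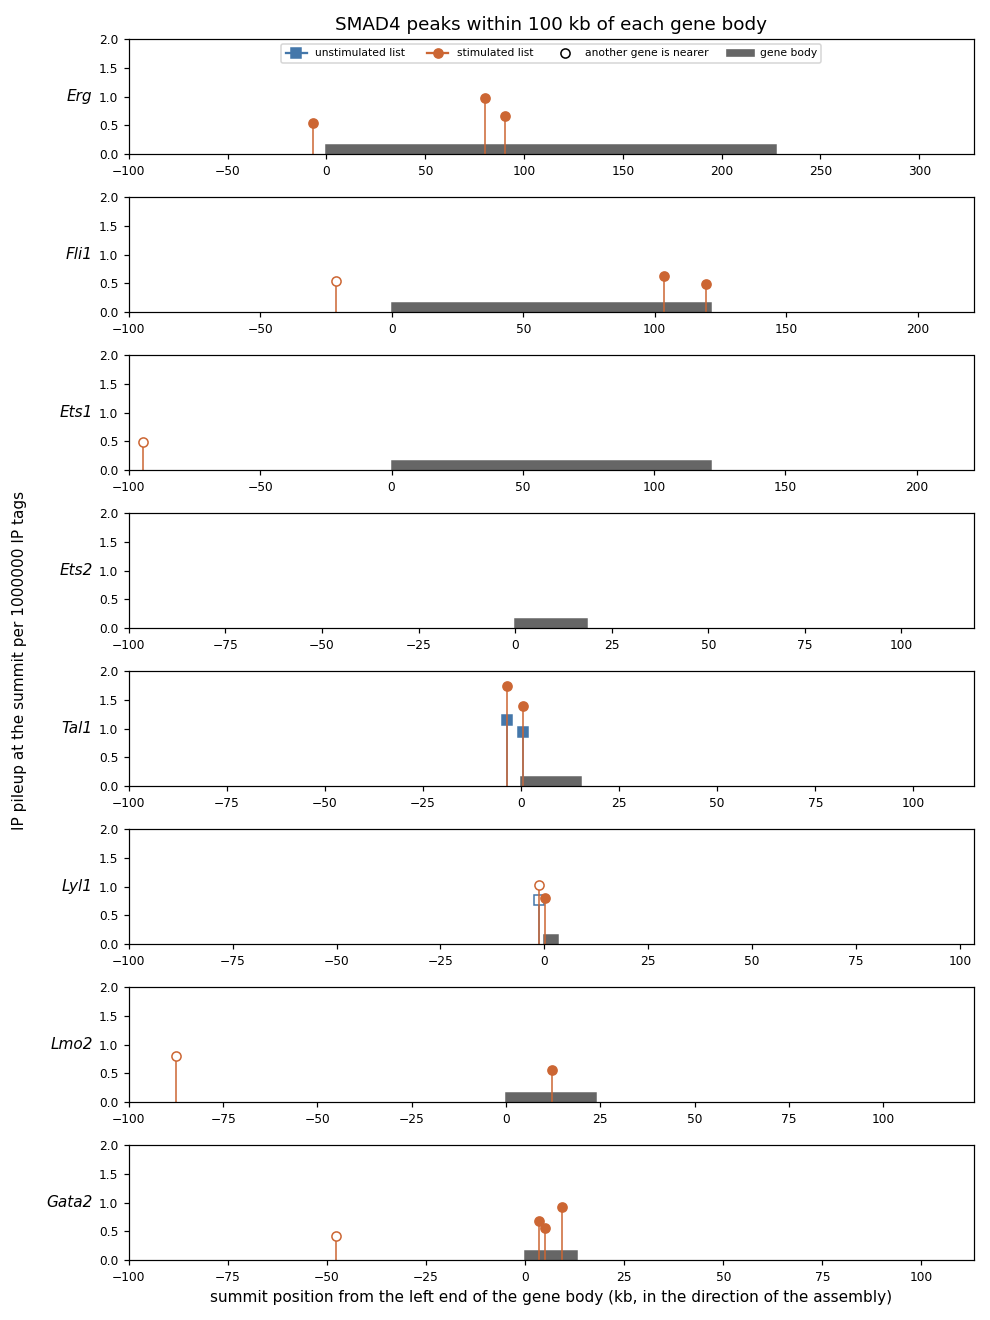
Each panel shows 1 gene, with the position of each summit from the left end of the gene body in kb on the x axis and the IP pileup per 1000000 IP tags on the y axis. Squares are unstimulated and circles stimulated peaks, open symbols mark peaks closer to another gene, and grey bars are gene bodies. Unstimulated peaks are seen at Tal1 and Lyl1 alone, and the Ets2 panel is empty.

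Erg (chr16:95359169-95586600) encodes the ETS factor most closely tied to endothelial identity. No unstimulated summit lay within 100 kb of it, and the closest was 275 kb away. In the stimulated list 2 peaks lay inside the gene body and 1 outside, and Erg was the nearest gene of all 3. The strongest by pileup (chr16:95439292-95439512) had 40 tags over its summit, or 0.975 per 1000000 IP tags, on a local background of 0.171, and a fold enrichment over background of 5.13. The second inside the body (chr16:95449425-95449618) had 27 tags (0.658 per 1000000) and a fold enrichment of 5.60. These summits lay 19.9 and 9.83 kb downstream of the innermost of the 3 start sites that RefSeq lists for Erg, so they are deep in the gene and not at a listed start. The third peak (chr16:95352424-95352556), 6.65 kb beyond the end of the gene, was the weakest of the 16 by fold enrichment, at 3.19 with 22 tags (0.536 per 1000000).

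Fli1 (chr9:32422204-32543432), the closest relative of Erg, and Ets1 (chr9:32636241-32757820), an ETS factor linked to angiogenesis, are neighbours with 92.8 kb between them. Neither had an unstimulated summit within 100 kb, and the closest was 1315 kb from Fli1 and 1101 kb from Ets1. Inside Fli1 the stimulated list held a peak of 26 tags (chr9:32525762-32526123, 0.633 per 1000000, fold enrichment 3.38) and a peak of 20 tags (chr9:32541571-32541859, 0.487 per 1000000, fold enrichment 3.50). Their fold enrichments exceeded those of 15.5% and 18.3% of the stimulated list, so both belong to its lower part. The second summit lay 1.82 kb inside the end of the gene body that faces Ets1, and it was the 1 peak in the window of Ets1, 94.6 kb away. No start sites of Fli1 were listed among the promoters used here, so whether this summit lies near a start was not tested. The last peak assigned to Fli1 (chr9:32400765-32400905, 22 tags, fold enrichment 3.43) was 21.3 kb outside the body and lay 1.70 kb from the potassium channel gene Kcnj1.

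Ets1 thus had no peak of its own within 100 kb. Beyond the window, Ets1 was still the nearest protein-coding gene of 2 stimulated peaks, 144 and 148 kb from its body (chr9:32901345-32901523 and chr9:32906259-32906381), with 34 tags (0.828 per 1000000) and 32 tags (0.780 per 1000000). Neither overlapped an unstimulated peak.

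Ets2 (chr16:95702407-95721049), a broadly expressed ETS factor, lies 116 kb from Erg and had no peak in either list within 100 kb. The closest was a site called in both lists, 140 kb away, and its nearest gene was Psmg1. That site had 0.755 tags per 1000000 unstimulated and 1.07 stimulated. None of the Erg peaks fell within 100 kb of Ets2.

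Tal1 (chr4:115056426-115071755), a master regulator of blood specification that is also expressed in endothelium, had 2 peaks in each list. Tal1 was the nearest gene of both sites. At the upstream site the unstimulated peak (chr4:115052599-115052965) had 61 tags, or 1.15 per 1000000, and the stimulated peak (chr4:115052482-115052971) had 71 tags, or 1.73 per 1000000. The summits lay 3.68 and 3.70 kb upstream of the first listed start site. An enhancer upstream of Tal1 is known from work on endothelial and blood progenitor cells, and whether this peak coincides with it was not tested.

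At the second Tal1 site the unstimulated peak (chr4:115056876-115057030) had 50 tags (0.944 per 1000000) and the stimulated peak (chr4:115056700-115057178) had 57 (1.39 per 1000000). Its stimulated summit fell between the 2 start sites listed by RefSeq, 0.569 kb downstream of the first and 0.816 kb upstream of the second. The 2 stimulated Tal1 peaks had the highest pileups of the 16, with fold enrichments of 7.20 and 5.80 against 5.08 and 3.86 unstimulated. They were also the widest, at 490 and 479 bp.

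The promoter windows on either side of this second site are shown because the peak lies between them (RefSeq, GRCm38.p6, plus strand, 250 bases before to 50 after each start; capitals mark CAGAC or its complement GTCTG, the core of the SMAD binding element, and GGCGCC, a GC-rich SMAD element).
Tal1 first start, chr4:115056176-115056475: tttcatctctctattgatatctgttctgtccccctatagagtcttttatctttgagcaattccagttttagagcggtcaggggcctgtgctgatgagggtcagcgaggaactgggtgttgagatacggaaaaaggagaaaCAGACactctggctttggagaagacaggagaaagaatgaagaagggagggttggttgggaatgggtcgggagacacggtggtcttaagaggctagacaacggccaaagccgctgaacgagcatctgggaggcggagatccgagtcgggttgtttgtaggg
Tal1 second start, chr4:115057561-115057860: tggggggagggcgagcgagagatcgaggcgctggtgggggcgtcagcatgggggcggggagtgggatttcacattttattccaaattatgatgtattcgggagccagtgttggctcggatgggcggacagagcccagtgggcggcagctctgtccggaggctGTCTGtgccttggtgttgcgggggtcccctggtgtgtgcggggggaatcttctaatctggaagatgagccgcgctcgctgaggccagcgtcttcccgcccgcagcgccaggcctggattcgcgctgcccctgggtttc
Between the stimulated peak and the first window lay 224 bases, and between it and the second 382. Each window held 1 CAGAC core, 0 GGCGCC and 4 GGAA. Of 21255 promoter windows of protein-coding genes, 48.4% held CAGAC on either strand, so such a match is common. The sequence under the peak itself was not analysed here.

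Lyl1 (chr8:84701423-84704716), the close relative of Tal1, had 1 unstimulated and 2 stimulated peaks around a gene body of 3.29 kb. The shared site lay upstream, with 41 tags unstimulated (chr8:84699992-84700192, 0.774 per 1000000) and 42 stimulated (chr8:84699976-84700243, 1.02 per 1000000). Its summits were 1.29 and 1.37 kb from Lyl1 and nearer to Trmt1, a tRNA methyltransferase gene, at 0.323 and 0.249 kb. The stimulated list added a peak inside Lyl1 (chr8:84701537-84701743) with 33 tags (0.804 per 1000000, fold enrichment 3.78), 0.217 kb downstream of the listed start. That was the 1 Lyl1 peak for which Lyl1 was the nearest gene.

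The Lyl1 promoter window is shown because this peak began 30 bases beyond its downstream end (plus strand; capitals mark CCGGAA or its complement, a strong ETS core).
Lyl1, chr8:84701207-84701506: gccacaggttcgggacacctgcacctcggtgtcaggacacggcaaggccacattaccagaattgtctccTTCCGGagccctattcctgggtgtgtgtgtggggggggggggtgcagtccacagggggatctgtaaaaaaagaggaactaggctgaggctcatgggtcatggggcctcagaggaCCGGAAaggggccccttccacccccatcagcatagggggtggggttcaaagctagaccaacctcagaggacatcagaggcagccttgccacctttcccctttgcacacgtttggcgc
The window held 2 CCGGAA and 6 GGAA cores and neither of the SMAD elements marked above. The longer ETS core was found in 18.7% of all promoter windows and the shorter GGAA, which it contains, in 95.8%. These are letter matches on either strand, not shown to be bound sites.

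Lmo2 (chr2:103957903-103981878) encodes the LIM-only bridging protein of the TAL1 complex. It had 2 stimulated peaks, and its closest unstimulated summit was 1971 kb away. The peak inside the gene (chr2:103970005-103970141) had 23 tags, or 0.560 per 1000000, with a fold enrichment of 4.80. The other (chr2:103870252-103870515) lay 87.6 kb from Lmo2 and 72.7 kb from Caprin1, which was its nearest gene. It had 33 tags (0.804 per 1000000) on the lowest background of the 16 peaks, 0.0558 per 1000000. Its fold enrichment of 10.3 was the highest of the 16 and exceeded that of 98.5% of the stimulated list. By pileup it equalled the peak inside Lyl1, whose background was 0.195 per 1000000, so its rank rests on the low background as well as on the tags.

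Gata2 (chr6:88193891-88207032) had 4 stimulated peaks, the most of the 8 genes in that list, and 0 unstimulated ones. Of all protein-coding genes, 3.99% had 4 or more stimulated summits in the window. The closest unstimulated summit was 449 kb away. The strongest peak inside the gene (chr6:88203090-88203330) had 38 tags, or 0.926 per 1000000, and a fold enrichment of 6.50. Its summit lay 9.31 kb downstream of the first and 4.53 kb downstream of the second listed start. An intronic enhancer of Gata2 with an E-box beside a GATA motif is known to act in endothelium and blood stem cells, and whether this peak coincides with it was not tested.

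The other peaks inside Gata2 flanked its second start site. The first of them (chr6:88197368-88197674) had 28 tags (0.682 per 1000000, fold enrichment 5.80) and a summit 1.21 kb upstream of that start. The next (chr6:88198640-88198892) had 23 tags (0.560 per 1000000, fold enrichment 4.21) and a summit 0.139 kb downstream of it. The remaining peak (chr6:88146080-88146191), 47.7 kb from Gata2 and 40.8 kb from Rpn1, its nearest gene, had 17 tags, the fewest of the 16.

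Fli1, Ets1 and Lmo2 had no listed promoter windows. Among the other described genes, the peak at the second Gata2 start was the 1 peak that overlapped such a window. Both Gata2 windows are shown to compare the start with a peak and the one without (plus strand, capitals as for Tal1).
Gata2 first start, chr6:88193641-88193940: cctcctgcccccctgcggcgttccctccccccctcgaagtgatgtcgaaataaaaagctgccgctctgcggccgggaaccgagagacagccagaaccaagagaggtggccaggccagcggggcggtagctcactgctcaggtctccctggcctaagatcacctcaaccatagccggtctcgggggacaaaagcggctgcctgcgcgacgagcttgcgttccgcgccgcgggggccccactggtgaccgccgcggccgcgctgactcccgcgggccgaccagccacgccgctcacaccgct
Gata2 second start, chr6:88198414-88198713: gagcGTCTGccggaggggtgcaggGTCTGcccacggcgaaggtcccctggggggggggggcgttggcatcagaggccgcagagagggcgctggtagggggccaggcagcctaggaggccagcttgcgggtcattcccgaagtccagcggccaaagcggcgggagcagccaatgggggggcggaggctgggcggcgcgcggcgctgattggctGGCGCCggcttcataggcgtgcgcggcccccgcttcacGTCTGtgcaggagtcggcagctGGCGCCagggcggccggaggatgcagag
The peak covered bases 227 to 300 of the second window. That window held 3 CAGAC cores, all written as GTCTG on the strand shown, and 2 GGCGCC. Of these, the GTCTG at base 251 and the GC-rich element at base 273 lay under the peak. The first window, 3427 bases from the closest peak, held 0 of either. The GC-rich element was present in 15.3% of all promoter windows, and 2.86% of all windows overlapped a stimulated peak and 0.536% an unstimulated one. The GC content of the windows was 69.3% and 73.7%.

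The promoter windows of Erg and Ets2, which no peak overlapped, held at most 1 CAGAC core each and no GC-rich element. The palindromic SMAD element GTCTAGAC was in none of the 9 windows of the 5 genes listed, and in 0.226% of all windows. An E-box (CANNTG, in 69.0% of all windows) was present in 4 of the 9 and GATAA (22.5%) in 2. No promoter windows were used for Fli1, Ets1 and Lmo2.

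**Figure D2:**
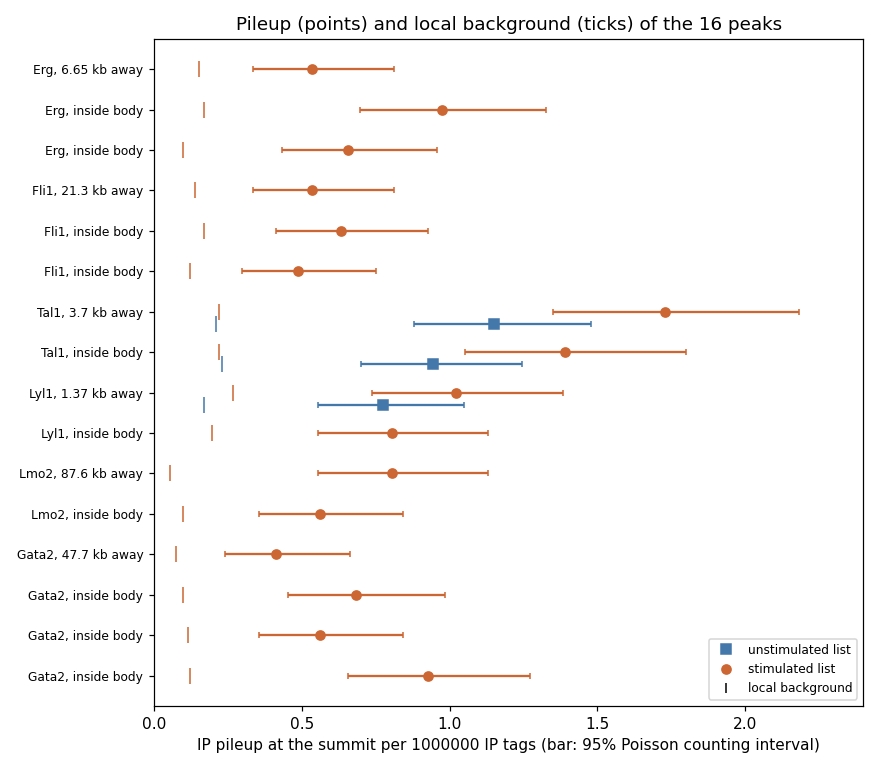
The x axis gives the IP pileup at the summit per 1000000 IP tags, with 95% Poisson counting intervals as bars, for the 16 stimulated peaks (circles, 1 per line, the peak of Fli1 and Ets1 once) and the 3 unstimulated ones (squares). Ticks mark the local background. The Tal1 peaks stand highest, at 1.73 and 1.39, and the distant Gata2 peak lowest, at 0.414.

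Next, the sites called in both lists were compared. Of the 16 stimulated peaks 3 overlapped an unstimulated peak (18.8% of them), against 24.9% of the whole stimulated list, and all 3 unstimulated peaks overlapped a stimulated one, against 95.9% of the unstimulated list. The stimulated pileup per IP tag was 1.50 times the unstimulated one at the upstream Tal1 site (95% exact binomial interval on the 2 pileups 1.05 to 2.15). It was 1.47 times at the second Tal1 site (0.989 to 2.20) and 1.32 times at the Lyl1 site (0.839 to 2.08). The interval thus lay above 1 at 1 of the 3 sites, against 36.6% of the 1078 shared sites of the genome. Such intervals cover counting error in the pooled libraries only.

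The Tal1 and Lyl1 sites were ordinary shared sites in this respect. The median ratio over all 1078 shared sites was 1.47, with an interquartile range of 1.29 to 1.68, and the median of the 3 sites was also 1.47. The interval of none of the 3 lay above that median, which 0.464% of all shared sites did. At the Lyl1 site the measures pointed apart. Pileup per tag was higher in the stimulated list, but fold enrichment was lower, 3.58 against 4.20, because the local background there was 0.268 per 1000000 tags stimulated and 0.170 unstimulated. At the Tal1 sites the background per tag differed little (stimulated over unstimulated 1.04 and 0.952), and fold enrichment was higher by 1.42 and 1.50 times.

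**Figure D3:**
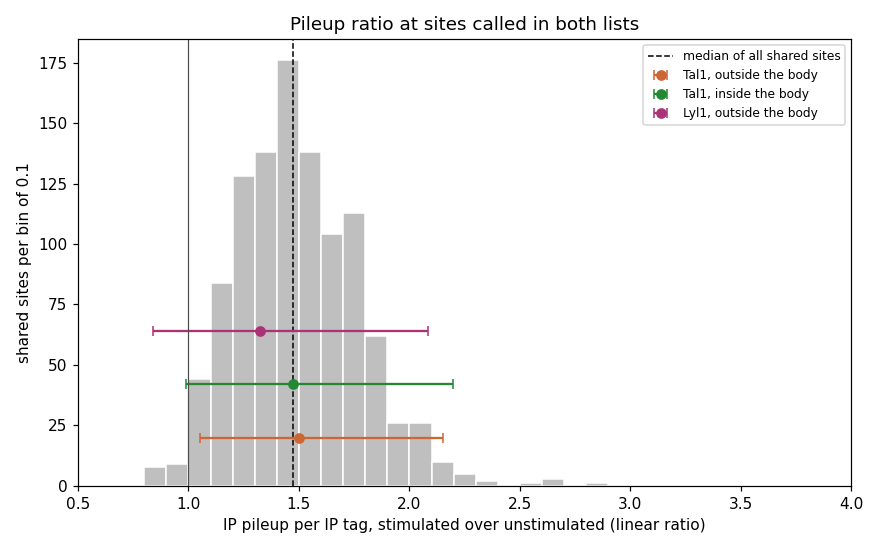
Grey bars count the 1078 sites called in both lists by how many times higher the stimulated IP pileup per tag was, in bins of 0.1, and the dashed line is their median (1.47). Points with bars are the 3 sites at Tal1 and Lyl1 with 95% exact binomial intervals, placed at arbitrary heights. All 3 intervals include the median.

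The 13 stimulated peaks without an unstimulated counterpart were those of Erg, Fli1, Lmo2 and Gata2 and the peak inside Lyl1. Their pileups ran from 0.414 to 0.975 per 1000000 tags with a median of 0.633, and the median of all stimulated peaks without a counterpart was also 0.633. Their median fold enrichment was 4.39, against 4.29 in all such peaks, and 7 of the 13 lay above 4.29. Their median width was 221 bp, against 180 bp. In pileup and fold enrichment these peaks were thus typical of such peaks. The pileup of the unstimulated libraries at these places was not analysed here, so no ratio is given.

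Last, genes of related function were counted in the same way. Of 22 other ETS family genes, 12 had a stimulated summit within 100 kb (54.5%) and 6 an unstimulated one (27.3%), against 36.5% and 13.1% of all genes. Of the 22, 8 were nearest to a stimulated peak and 1 to an unstimulated one, against 12.2% and 3.79% of all genes. That 1 gene was Erf, an ETS repressor, with a shared site inside the gene (0.529 tags per 1000000 unstimulated and 0.633 stimulated). Elk3, an ETS factor of vascular cells, had the most stimulated peaks for which an ETS gene was nearest, 5, of which 4 lay inside the gene, the strongest with a fold enrichment of 6.39. Etv6, needed for blood stem cells, had 3 inside the gene (fold enrichments 5.0, 5.82 and 5.42). Etv1 was nearest to a peak inside the gene (3.18) and to one 34.2 kb away (8.81), and Etv4 to a pair 45.1 and 45.5 kb away (4.82 and 4.26). Elf2 (7.07, inside the gene), Elk4 (5.07, 3.58 kb away) and Spi1 (3.13, inside the gene) were each nearest to 1 stimulated peak.

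Of 18 partners and other blood and endothelial factors, 6 had a stimulated summit in the window (33.3%, against 36.5% of all genes) and 1 an unstimulated one (5.56%, against 13.1%), and 4 were nearest to a stimulated peak and 0 to an unstimulated one. These 4 were Tcf4, an E protein that pairs with TAL1, with 5 peaks, Cbfa2t3, a corepressor of the TAL1 complex, with 3, and Gata3 (fold enrichment 7.78) and Hhex (5.71) with 1 each. Ldb1, which links LMO2 to other proteins, had a stimulated peak 16.6 kb away that was nearer to Hps6. Tcf3, Tcf12 and Runx1 were among those with none. Of 14 blood cell marker genes 8 had a stimulated and 6 an unstimulated summit in the window (57.1% and 42.9%, against 36.5% and 13.1% of all genes). Of these, 1 (Ptprc) was nearest to a peak in either list, against 12.2% and 3.79% of all genes. The window count and the nearest-gene count thus differ most for that list, whose summits mainly lie beside other genes.

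**Figure D4:**
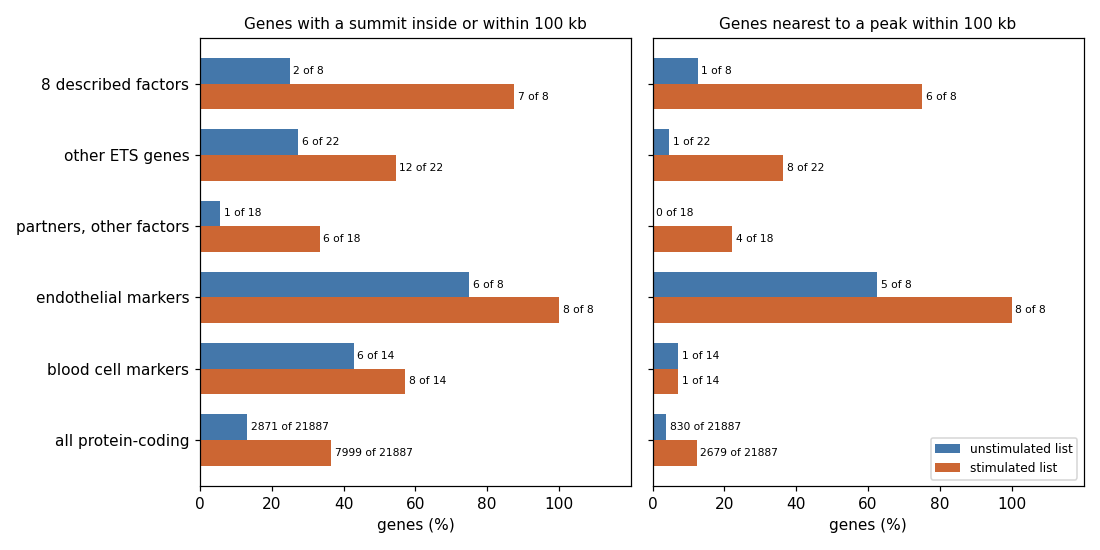
Bars give the percentage of genes in each list with a summit inside or within 100 kb (left) and of genes lying nearest to some peak within 100 kb (right), for the unstimulated and stimulated lists, with the counts beside them. The 8 described factors reach 7 of 8 and 6 of 8 in the stimulated list, and the blood cell markers 8 of 14 and 1 of 14.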

How the data were processed

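SMAD4 ChIP-seq of MS1 cells was analysed from a single peak list for each condition. The authors produced each list with MACS2 2.1.0.20140616 from 2 merged IP against 2 merged input libraries, per the file headers. The headers also give at most 1 tag per position, each tag set to a fixed length of 100 bp, and a q cutoff of 0.01. The build is mm10, per the submitters' processing notes, and no aligner is named in the sources used here. Pileup, a coverage signal, was deposited unscaled and was divided here by the IP tags of its list. The deposited fold enrichment is a ratio the authors' caller forms after adding 1 to pileup and to local background, so the background could be recovered from it. The −log10 p and −log10 q values are the authors'. Tags were 146 and 140 bp long and the band width settings 300 and 200, per the file headers.

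Gene positions and promoter sequences came from RefSeq (GRCm38.p6). Distances run from summit to gene body, ties kept. Sites were shared at an overlap of 1 bp or more and paired by closest summits, each peak used once. Intervals are exact at 95% (SciPy 1.17.1) and cover counting error only. The code was tested on simulated data. No test across samples was possible with 1 pooled value per condition. The 8 genes and the gene lists were chosen with earlier results of these data known, so their counts are given beside those of all genes and without p-values. All 8 genes and each of their peaks are named, by rule, and of the other lists only genes with a peak, except Tcf3, Tcf12 and Runx1, which were named after their values were seen. The pair of peaks near Ets1 beyond 100 kb was likewise singled out after it was seen.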

Additional observations from a re-analysis of the deposited data

How the results depend on the processing

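Of 25 alternative settings, 18 left the value within 1.5 times, or inside the counting interval, of the one reported, among them windows of 50 and 200 kb, nearest genes without predicted genes, and stricter overlaps. On such small counts that tolerance lets single genes or sites change. A window of 200 kb gave 8 genes with a stimulated and 3 with an unstimulated peak, Ets2 among both. At 50 kb 6 genes, without Ets1, had a stimulated peak. Shares of all genes at these windows are not given here. With an overlap of at least 50% of each peak, 2 stimulated peaks were shared in place of 3. A −log10 q minimum of 10 left 1 of the 8 genes with an unstimulated peak (Tal1) and 4 with a stimulated one, at 7 stimulated peaks, against 4.92% and 17.1% of all genes. At equal list length the stimulated list left 4 genes and 5 peaks. Both settings remove peaks by construction. With a 99% interval, 0 of the 3 shared sites lay above 1, in place of 1 site, and the share of all shared sites is not given here. With the 95% interval set against the median ratio of all shared sites, 0 of the 3 lay above it, against 0.464% of all shared sites. No paired analysis was possible because each list pools its libraries, and no library could be left out for the same reason.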
